A study of Arabidopsis thaliana with 24 samples.

Results

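The chloroplast genome of Arabidopsis thaliana was examined through the 133 rows of the deposited gene table whose identifiers start with ATCG, out of 32833 rows in all. Members were the 45 rows with at least 10 counts in 3 or more of the 24 libraries. By the annotation in the files 39 of them were protein-coding, 4 were ribosomal RNA and 2 were transfer RNA. They fell into 24 photosynthesis genes, 18 genes of the chloroplast's own expression machinery (RNA polymerase, ribosomal proteins, ribosomal RNA and transfer RNA) and 3 other genes. The 88 rows that were not members comprised 37 with no count in any library and 51 with some counts, and the members held 95.9% of all chloroplast counts. At the edge of the rule, psbT reached 10 counts in 3 libraries and was kept, whereas petN, ndhC, psbE, psbH and the transfer RNA row ATCG00090 reached it in 2 libraries and were left out.

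The chloroplast keeps a small circular genome of cyanobacterial origin that encodes core subunits of the photosynthetic complexes and part of the apparatus that expresses them, while most chloroplast proteins are encoded in the nucleus. Its genes are transcribed by a bacterial-type polymerase, whose core subunits are the chloroplast genes rpoA, rpoB, rpoC1 and rpoC2 and whose sigma factors come from the nucleus, and by phage-type polymerases encoded in the nucleus. Many genes are transcribed together as long precursors that are then cut, trimmed and stabilised by nuclear-encoded RNA-binding proteins. A tail of adenosines added to a chloroplast transcript is known to mark it for decay, in contrast to the tails of nuclear messenger RNA.

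RNA came from whole 9-day-old seedlings grown on 1/2 MS medium with sucrose, in 8 groups of 3 libraries each. Wild type and the exa1-1 mutant were kept for 60 min on 1/2 MS, in 200 mM NaCl, at 23 °C or at 39 °C, which gave a salt set of 4 groups and a heat set of 4 groups, each with its own unstressed controls. EXA1 (AT5G42950), the gene that names the mutant, gave 2179 to 4606 counts in wild-type libraries and 240 to 1162 in exa1-1 libraries, without overlap. The labels state strand-specific mRNA libraries, but not how mRNA was selected, whether counting used strand, or whether replicates came from separate cultures, so p-values measure the spread between these libraries, which may be technical.

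Chloroplast rows made up a very small part of every library, 1289 to 3400 counts among totals of 17658196 to 20992263. The wild-type group on 1/2 MS held chloroplast counts at 129 CPM, relative to all counts of the library, ± 35.8 (SD, n = 3), the largest spread of any group, with replicate 1 at 170 against 104 in the lowest library. Wild type at 23 °C held 119 ± 4.39 and at 39 °C 80.3 ± 12.7 on the same scale (SD, n = 3 each). The exa1-1 groups were at 127 ± 9.62 on 1/2 MS, 94.7 ± 17.0 in NaCl, 127 ± 16.8 at 23 °C and 84.7 ± 9.46 at 39 °C (SD, n = 3 each), and wild type in NaCl was at 96.4 ± 10.6 (SD, n = 3). The libraries at 39 °C did not overlap with those at 23 °C in either genotype, and the log2 difference as a share of all counts was -0.57 in wild type and -0.58 in exa1-1. With a TMM-scaled library size as denominator (TMM is a scaling that sets most genes level between libraries) it turned to 0.31 and 0.42. The direction of the summed difference therefore depends on the scale. In whole seedlings, changes in cells with chloroplasts, in chloroplast RNA per cell and in the other RNA of the library cannot be told apart.

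**Figure D1:**
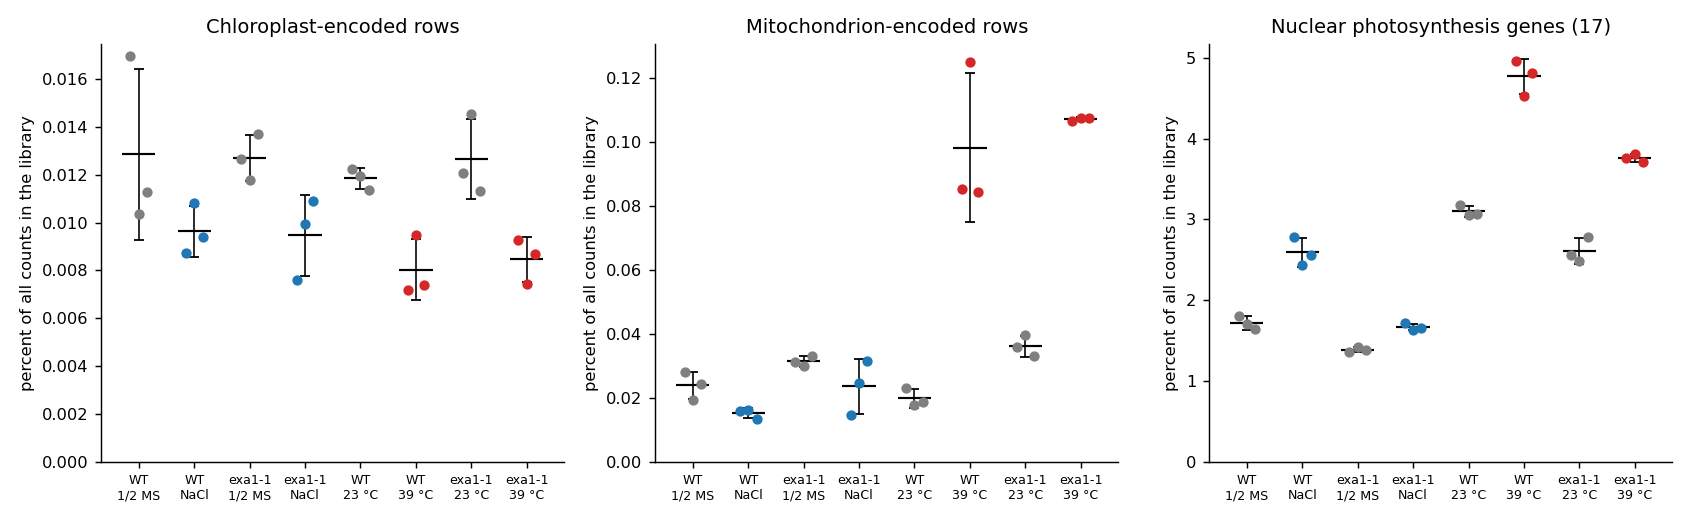
Summed chloroplast-encoded, mitochondrion-encoded and nuclear photosynthesis (17 listed genes) counts as percent of all counts in each library, by group; points are libraries, the line is the group mean and the bar ± 1 SD (n = 3). As a share of counts chloroplast levels stand lower at 39 °C than at 23 °C, while the other sums stand higher; with TMM-scaled library sizes the chloroplast difference is 0.31 and 0.42 on the log2 scale.

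Short and long genes that could be tested differed in what happened to them at 39 °C. The 6 sequences shown are a pair of short genes that rose, and windows of genes chosen by their longest run of A. The first pair are the whole coding sequences of psbK and psbI, encoding small subunits of photosystem II, which lie next to each other on the plus strand of the chloroplast chromosome (RefSeq, TAIR10.1) at Pltd:7017-7202 and Pltd:7583-7693. Their start and stop codons are in capitals.
psbK: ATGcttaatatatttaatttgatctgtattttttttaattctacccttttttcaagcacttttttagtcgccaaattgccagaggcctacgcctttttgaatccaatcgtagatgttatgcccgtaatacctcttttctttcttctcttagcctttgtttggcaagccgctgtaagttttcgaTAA
psbI: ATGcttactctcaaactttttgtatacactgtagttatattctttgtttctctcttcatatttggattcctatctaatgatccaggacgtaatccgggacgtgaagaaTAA
The other sequences are windows of 25 bases on each side of the longest run of A in the coding strand of rpoC2, rpoB, atpB and rpoA, the members with a run of 10 or more, a length chosen after their values were seen. All lie on the minus strand, at Pltd:17901-17963, Pltd:25659-25718, Pltd:54076-54135 and Pltd:78070-78133, and the run is in capitals.
rpoC2: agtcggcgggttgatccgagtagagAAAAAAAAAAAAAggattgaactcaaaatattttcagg
rpoB: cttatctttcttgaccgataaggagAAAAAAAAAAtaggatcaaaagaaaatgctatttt
atpB: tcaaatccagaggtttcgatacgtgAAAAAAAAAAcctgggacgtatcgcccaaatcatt
rpoA: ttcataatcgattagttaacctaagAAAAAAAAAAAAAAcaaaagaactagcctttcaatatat
Of the 45 members, 38 protein-coding genes could be placed on the RefSeq chloroplast chromosome, and in all 38 the RefSeq exon length equalled the length behind the deposited FPKM values. Overlapping members were psbD and psbC (53 bases), atpB and atpE (4 bases) and rps3 and rpl22 (16 bases), each pair on the same strand, so reads in the overlap cannot be divided between them. The 2 rows for rrn16S and the 2 for rrn23S are copies in the inverted repeat, and how reads were divided between them is uncertain. No copy of psbK or psbI was found elsewhere in the genome, whereas stretches of rpoB, rbcL and psbA have copies in the mitochondrial genome at 95.7%, 97.2% and 95.3% identity. Nuclear chromosomes hold copies of other members. Among these, atpI matched chromosome 3 over 750 bases at 95.5%, and rpoC2 over 2550 bases at 93.6%. On chromosome 4, rpoA had a match of 68 bases at 100%. How reads were divided between such copies is uncertain.

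Per length, the order of levels differed from the order of counts. Averaged over the 8 groups, the deposited FPKM, a count divided by exon length and library total, was highest for the transfer RNA ATCG00100 at 27.4, psbK at 24.2, psbA at 11.7, rpl32 at 11.2 and atpB at 9.48, and lowest for rpoC2 at 0.0853. The first pair owed their place to the libraries at 39 °C: the FPKM of ATCG00100 ranged from a group mean of 3.10 in exa1-1 in NaCl to 96.2 in exa1-1 at 39 °C, and that of psbK from 9.21 to 69.1 in the exa1-1 groups on 1/2 MS and at 39 °C. Among the 3 other genes, clpP, a subunit of the chloroplast protease, had the highest mean FPKM, 4.28, with group means from 1.91 in exa1-1 at 39 °C to 6.50 in wild type at 23 °C. Its counts were 41, 105 and 83 in wild type at 23 °C and 21, 35 and 25 at 39 °C, and 73, 75 and 39 against 26, 10 and 27 in exa1-1, with groups that did not overlap in counts but did after TMM scaling. The ribosomal RNA rows, which are the most abundant RNA of chloroplasts, stood at mean FPKM values of 0.158 to 0.574.

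Heat changed the make-up of the chloroplast counts in both genotypes. At 39 °C psbK, psbI and ATCG00100 rose several-fold, psbA rose, and rpoB, rpoC1, psaA and psaB fell. Of both genotypes' calls, 11 higher and 10 lower were shared and none was opposite. In wild type 12 members were higher and 11 lower among the 39 that passed the filter on low counts, against 38.4% higher and 41.6% lower, 80.1% in all, of the 20972 genes tested. In exa1-1 14 were higher and 12 lower among 39, against 38.4% and 41.8%, 80.2% in all. Members too low to be tested included ATCG00040, rpoC2, rpl20, psbT and petD. Calls here and below are at an adjusted p under 0.05 from edgeR's quasi-likelihood test with Benjamini-Hochberg adjustment over all genes tested. Without the filter, 11 members were higher and 13 lower of all 45 in wild type, against 31.2% and 34.2%, 65.4% in all, of 26628 genes, and 14 and 13 in exa1-1, against 31% and 34.5%, 65.4% in all.

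These calls rest on TMM scaling and shift with the scale. With libraries scaled to their total counts, the median log2 change of all genes moved from -0.07 to -0.95 in wild type and from -0.08 to -1.08 in exa1-1. The members then split into 5 higher and 19 lower in wild type, against 14.6% higher and 72.5% lower, 87% in all, of all genes tested. In exa1-1 they split into 5 higher and 22 lower, against 12.3% and 76.7%, 89% in all. Called higher under both scales were psbI, psbK, psbA, ATCG00100 and ndhJ in wild type, and psbI, psbK, psbA, ATCG00100 and psbJ in exa1-1. Without the libraries at 39 °C, ndhJ and psbJ would not have met the rule for members, so their rises are not independent of it. All 11 members called lower in wild type and all 12 in exa1-1 under TMM were also called lower under total counts. That scale moves all genes down, so this overlap was largely set in advance and is no separate support.

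**Figure D2:**
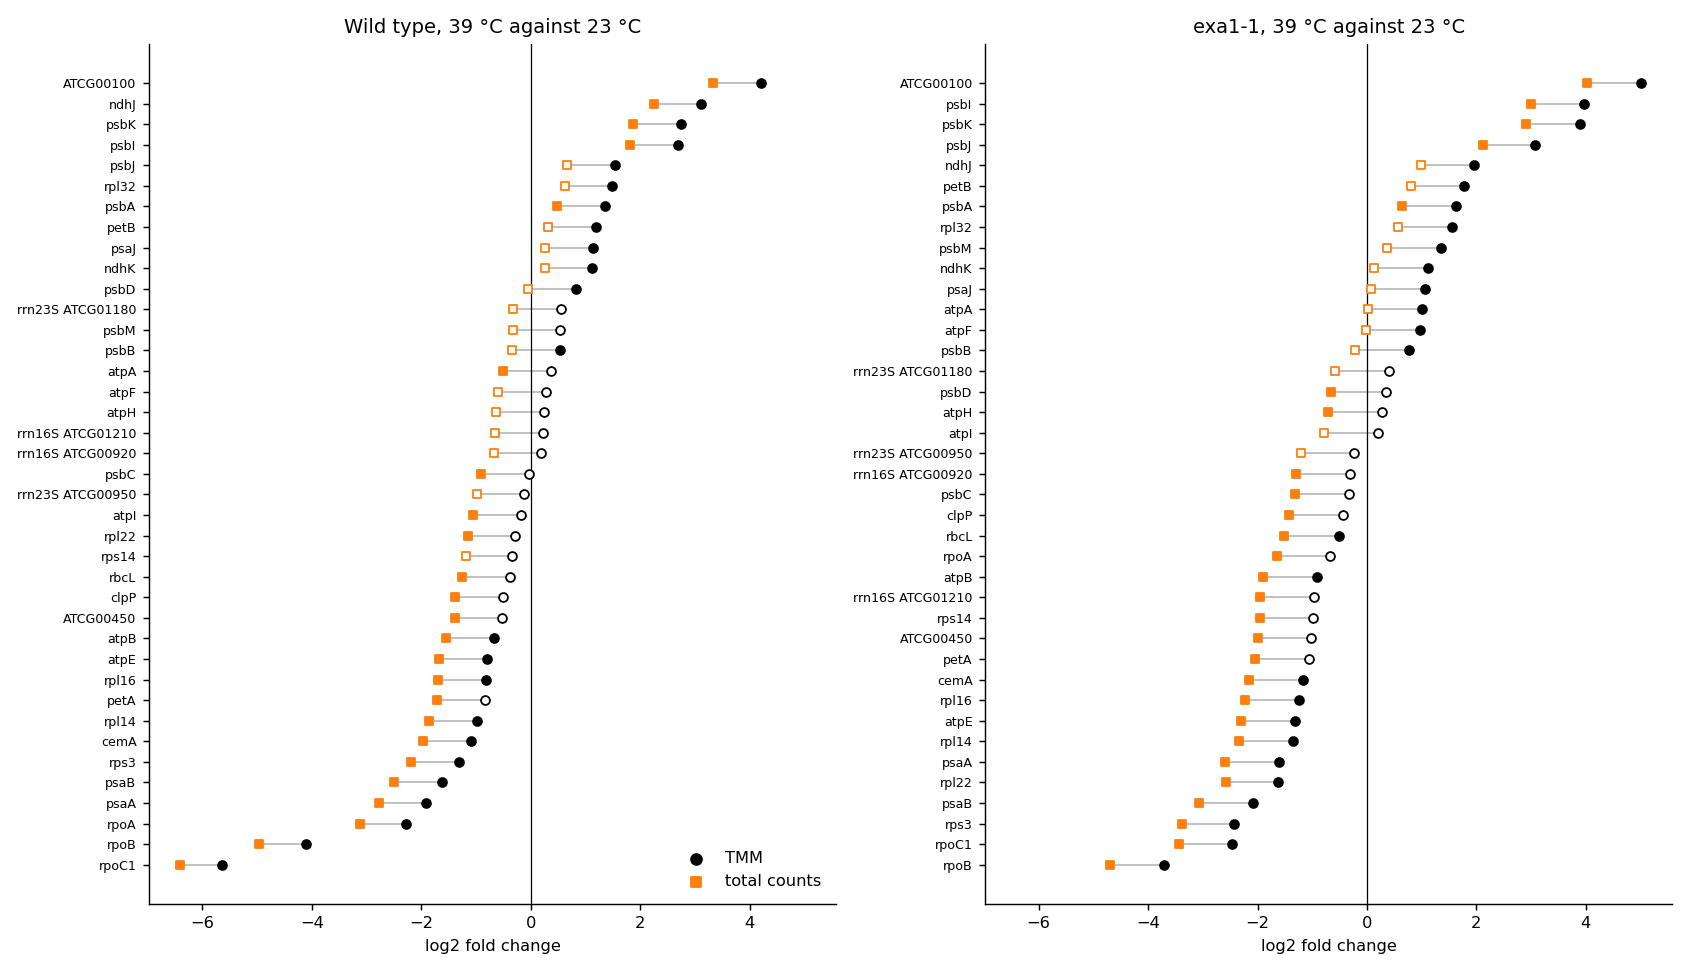
Log2 fold change of each tested member at 39 °C against 23 °C under TMM scaling (circles) and total-count scaling (squares), in wild type (left) and exa1-1 (right), ordered by the TMM value; filled symbols pass the threshold. Every member shifts to the left under total counts, and psbD, psbB and several others cross 0.

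psbK and psbI, encoding small photosystem II subunits, rose in both genotypes. psbK gave 44, 78 and 52 counts in wild type at 23 °C and 177, 244 and 174 at 39 °C, and in exa1-1 28, 44 and 33 at 23 °C and 256, 213 and 248 at 39 °C. All libraries at 39 °C were above all libraries at 23 °C. The log2 change was 2.74 ± 0.18 (SE; edgeR adjusted p = 2.96e-11) in wild type and 3.89 ± 0.19 (SE; edgeR adjusted p = 3.42e-13) in exa1-1, and 1.87 and 2.90 under total counts. As a share of all chloroplast counts psbK went from 2.49% ± 0.676 to 13.4% ± 1.15 in wild type and from 1.35% ± 0.193 to 15.2% ± 0.437 in exa1-1 (SD, n = 3 each). psbI, its neighbour, gave 7, 9 and 14 counts at 23 °C and 40, 19 and 41 at 39 °C in wild type, and 7 in each exa1-1 library at 23 °C against 54, 46 and 55 at 39 °C. Again the groups did not overlap, with log2 changes of 2.69 ± 0.33 (SE; edgeR adjusted p = 4.30e-07) and 3.98 ± 0.33 (SE; edgeR adjusted p = 1.54e-09).

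The transfer RNA row ATCG00100, whose identifier follows those of psbK, psbI and ATCG00090, moved with them. It gave 10, 11 and 15 counts at 23 °C and 104, 128 and 112 at 39 °C in wild type, and 9, 12 and 5 against 148, 104 and 140 in exa1-1. That was a log2 change of 4.21 ± 0.23 (SE; edgeR adjusted p = 1.69e-12) in wild type and 5.01 ± 0.23 (SE; edgeR adjusted p = 1.99e-13) in exa1-1, the largest rise of any member tested in both. The row between them, ATCG00090, was too low to be a member and summed to 7 counts at 23 °C and 22 at 39 °C in wild type, and to 2 and 24 in exa1-1.

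The other photosystem II genes moved less. psbA, encoding the D1 protein of the reaction centre, gave 190, 160 and 187 counts at 23 °C and 198, 264 and 242 at 39 °C in wild type, and 202, 226 and 166 against 334, 243 and 267 in exa1-1. It was called higher by 1.35 ± 0.14 (SE; edgeR adjusted p = 2.73e-08) and 1.63 ± 0.13 (SE; edgeR adjusted p = 1.10e-09) on the log2 scale, and by 0.47 and 0.64 under total counts, where the calls held. All libraries at 39 °C lay above those at 23 °C when scaled. psbJ, a small subunit, was called higher in both genotypes, at 1.53 in wild type and 3.07 in exa1-1, but under total counts only in exa1-1. It would not have met the rule for members without the libraries at 39 °C. psbD, encoding the D2 protein, was called higher in wild type at 0.83 and stood at -0.04 under total counts; in exa1-1 it stood at 0.34 and was not called. Its overlapping neighbour psbC, encoding the antenna protein CP43, was called in neither genotype, at -0.03 in wild type and -0.33 in exa1-1, but was called lower under total counts at -0.90 and -1.32. psbB, encoding CP47, was called higher at 0.53 and 0.77, and stood at -0.35 and -0.22 under total counts; without wild-type 39 °C replicate 2 the wild-type value was 0.33 (edgeR adjusted p = 0.124).

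The photosystem I reaction-centre genes fell. psaA summed to 320 counts at 23 °C and 44 at 39 °C in wild type, and to 505 and 76 in exa1-1. psaB gave 78, 93 and 88 against 10, 19 and 14 in wild type, and 113, 166 and 110 against 20, 14 and 8 in exa1-1. The groups did not overlap for either gene. psaA fell by 1.91 ± 0.33 (SE; edgeR adjusted p = 3.07e-05) in wild type and by 1.60 ± 0.28 (SE; edgeR adjusted p = 4.13e-05) in exa1-1 on the log2 scale, and psaB by 1.62 ± 0.27 (SE; edgeR adjusted p = 2.17e-05) and 2.08 ± 0.26 (SE; edgeR adjusted p = 5.87e-07). The ribosomal protein gene rps14, their neighbour by identifier, held 15 and 6 counts over wild type at 23 and 39 °C. As a share of chloroplast counts it went from 0.215% to 0.134% in wild type and from 0.460% to 0.167% in exa1-1. At these low counts it was called in neither genotype under TMM. psaJ, a small photosystem I subunit, was called higher at 1.14 and 1.06, but at 0.26 and 0.07 under total counts it was not called.

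In exa1-1, ATP synthase genes called under TMM went both ways. atpB, encoding the beta subunit of ATP synthase and the member with the most counts at 23 °C, gave 311, 384 and 425 counts at 23 °C and 96, 137 and 124 at 39 °C in wild type, and 385, 428 and 353 against 102, 95 and 88 in exa1-1. It fell by 0.68 ± 0.11 (SE; edgeR adjusted p = 1.24e-05) and 0.91 ± 0.11 (SE; edgeR adjusted p = 4.40e-07) on the log2 scale, and atpE, the epsilon subunit gene that follows it, fell by 0.80 and 1.31. The alpha subunit gene atpA stood at 0.36 in wild type, not called (edgeR adjusted p = 0.0511), and was called higher at 1.01 in exa1-1. Total counts put it at -0.52, called lower, and at 0.01. Of the NADH dehydrogenase-like complex, ndhJ was called higher at 3.12 and 1.96 and ndhK at 1.13 and 1.12. ndhJ gave 3, 3 and 1 against 10, 10 and 13 counts in wild type and 3, 5 and 4 against 4, 9 and 9 in exa1-1. It would not have met the rule for members without the wild-type libraries at 39 °C. Without wild-type 39 °C replicate 2 ndhK stood at 0.60 in wild type and was not called (edgeR adjusted p = 0.280). In the cytochrome b6f complex, petB was called higher at 1.19 and 1.78, whereas petA stood at -0.84 and -1.06 and was not called. Under total counts ndhK and petB were not called in either genotype, and petA was called lower in both. rbcL, the large subunit of Rubisco, stood at -0.38 in wild type, not called, and was called lower at -0.52 in exa1-1; total counts put it at -1.26 and -1.51, called in both.

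**Figure D3:**
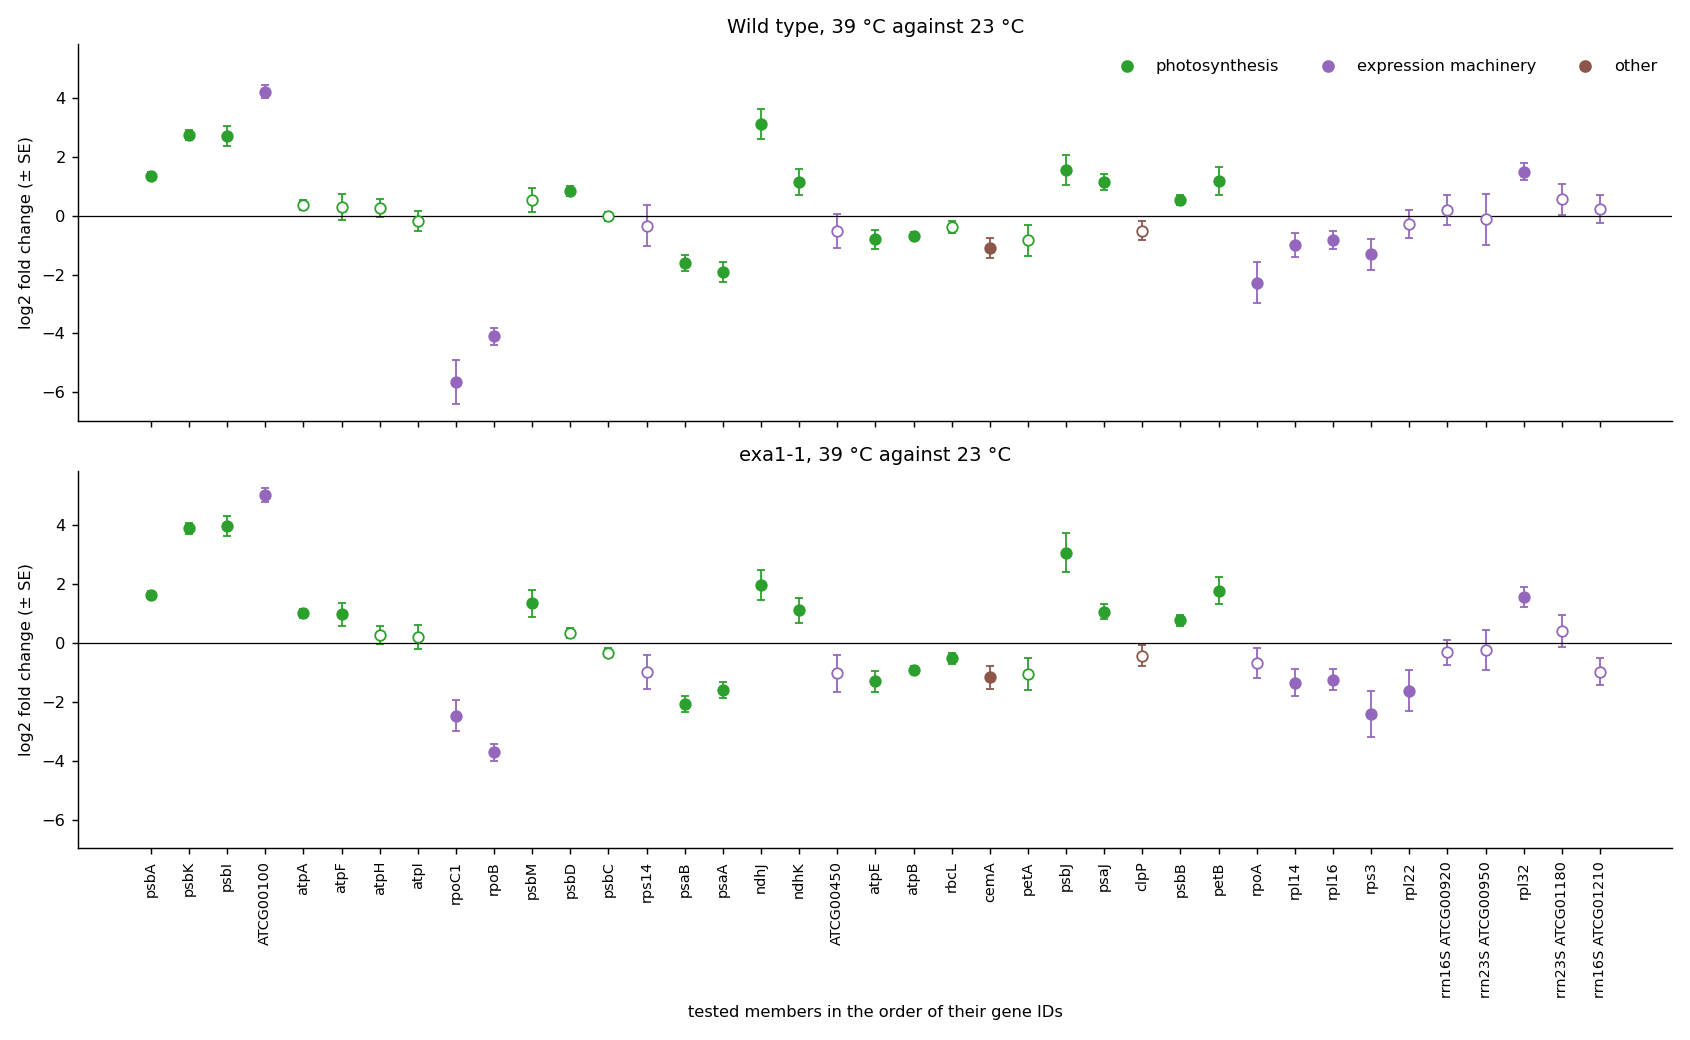
Log2 fold change at 39 °C against 23 °C (TMM scaling, ± SE) of the tested members in the order of their gene identifiers, in wild type (top) and exa1-1 (bottom); filled points pass the threshold. The rise at psbK, psbI and ATCG00100 and the fall at rpoC1 and rpoB are among the largest changes in both panels.

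rpoB and rpoC1, of the bacterial-type RNA polymerase, had the largest falls of the tested members in both genotypes. rpoB, the beta subunit gene, gave 164, 199 and 181 counts at 23 °C and 4, 5 and 7 at 39 °C in wild type, and 164, 210 and 177 against 12, 2 and 5 in exa1-1. The fall was 4.10 ± 0.29 on the log2 scale in wild type and 3.72 ± 0.28 in exa1-1 (SE; edgeR adjusted p = 1.15e-10 and 3.39e-10), without overlap. rpoC1, which follows it in the same operon, gave 47, 37 and 37 counts at 23 °C and 1, 0 and 0 at 39 °C in wild type, a level 61.8-fold lower with an exact 95% interval from 10.9 to 2459 that covers counting error alone. In exa1-1 it gave 41, 31 and 27 against 6, 1 and 1, and fell by 2.47 ± 0.52 on the log2 scale (SE; edgeR adjusted p = 2.52e-04). rpoC2, the next gene of the operon, was not tested in the heat set; it held 29 counts over wild type at 23 °C and 0 at 39 °C, at least 4.93-fold lower against a floor of 3 counts over the group, while the exact 95% interval of the ratio, for counting error alone, starts at 3.76. rpoA, the alpha subunit gene in the ribosomal protein cluster, was called lower in wild type, at -2.27 on 40 against 4 counts, and stood at -0.67 in exa1-1, not called, but was called lower there at -1.65 under total counts.

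Ribosomal protein genes went both ways. rpl14, rpl16 and rps3 of the ribosomal protein cluster were called lower in both genotypes, by 0.82 to 1.32 on the log2 scale in wild type and by 1.25 to 2.42 in exa1-1, and rpl22 beside them was called lower in exa1-1 at -1.62. The wild-type groups overlapped for rps3, which stood at -0.85 without wild-type 39 °C replicate 1 and at -0.87 without replicate 3, not called. Without exa1-1 39 °C replicate 1, rpl14 stood at -0.87 in exa1-1 and was not called (edgeR adjusted p = 0.0769). rpl32, outside that cluster, was called higher at 1.49 and 1.56, with 126 against 180 counts summed over wild type and 67 against 91 over exa1-1, and was not called under total counts. None of the 4 ribosomal RNA rows was called under TMM in either genotype, and neither was the transfer RNA ATCG00450. Under total counts both rrn16S rows were called lower in exa1-1, and ATCG00450 in both genotypes. Of the other genes, cemA, encoding an envelope membrane protein, was called lower at -1.10 and -1.17, and clpP, at -0.51 and -0.44, was not called under TMM but was lower under total counts, at -1.39 and -1.43. By class, the median log2 change of tested members was 0.45 for photosynthesis and -0.34 for expression machinery in wild type, and 0.87 and -0.98 in exa1-1, beside -0.07 and -0.08 over all genes tested.

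**Figure D4:**
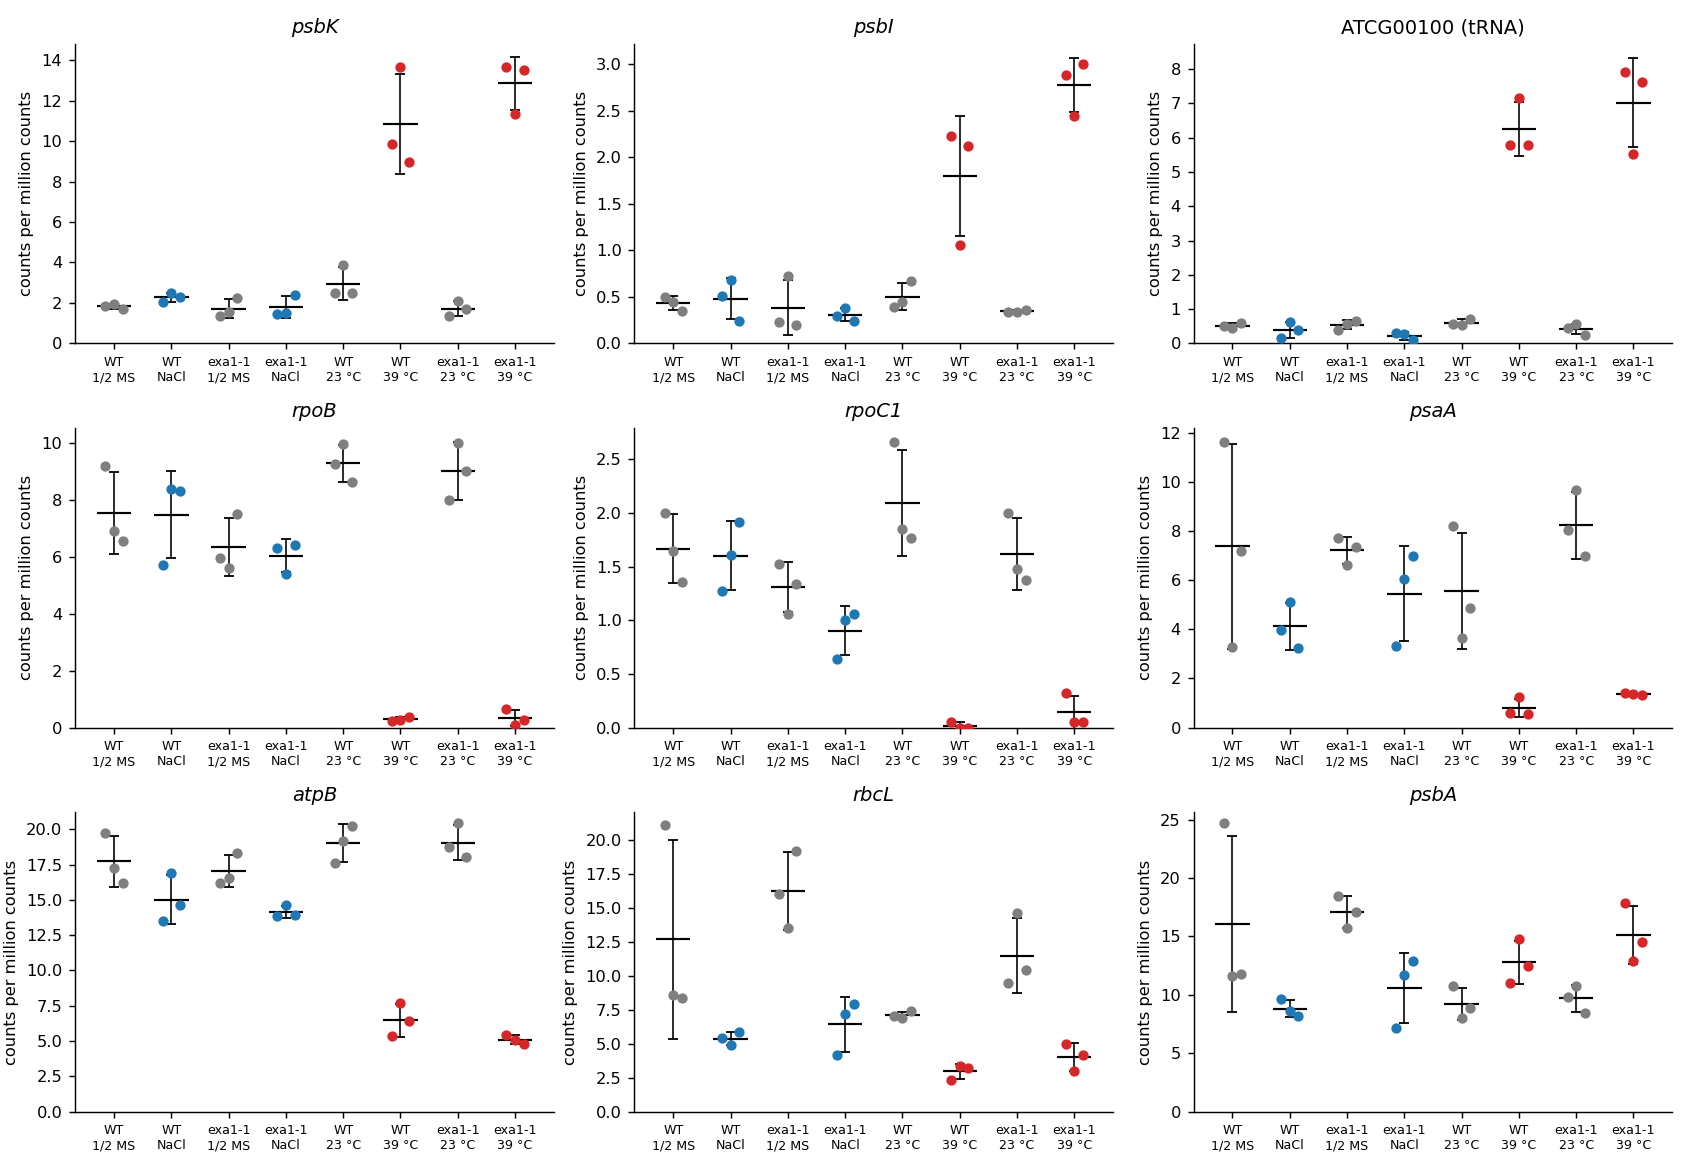
CPM relative to total counts of 9 members in all 24 libraries, by group; points are libraries, lines are group means and bars ± 1 SD (n = 3). psbK, psbI and ATCG00100 stand apart at 39 °C above all other groups, rpoB, rpoC1, psaA and atpB below them, and wild-type 1/2 MS replicate 1 is the high point for psaA, rbcL and psbA in its group.

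Across the placed protein-coding members, the heat change went with coding length. Spearman's rho between length and log2 change was -0.54 in wild type and -0.49 in exa1-1 over 33 genes, given as a description since genes share libraries and operons, beside -0.14 and -0.10 over 20901 nuclear genes. Of 7 members with a coding length under 200 bases, 6 were tested. Under TMM, 5 of these were called higher in wild type and 6 in exa1-1, and none lower. They include psbJ, which would not be a member without the libraries at 39 °C. The untested psbT, at low counts, went from 0.228% to 0.118% of chloroplast counts in wild type and from 0.279% to 0.315% in exa1-1. Under total counts, only psbK and psbI of the 6 were still called higher in wild type, and psbK, psbI and psbJ in exa1-1. The 4 tested members of 2000 bases or more, rpoC1, rpoB, psaB and psaA, were called lower in both genotypes under both scales. Of all genes tested under TMM, 38.4% were called higher and 41.6% lower in wild type, and 38.4% and 41.8% in exa1-1. Under total counts, 14.6% were higher and 72.5% lower in wild type, and 12.3% and 76.7% in exa1-1. The cut-offs of 200 and 2000 bases were not set in advance. The A content of the coding strand gave -0.48 and -0.51, and AT content 0.00 and 0.04. Of the members with an A run of 10 or more, printed above, rpoB and atpB were called lower in both genotypes and rpoA in wild type alone. Of 30 tested members with shorter runs, 8 were called lower and 11 higher in wild type, and 10 and 13 in exa1-1, beside the same TMM shares of all genes. That run length was chosen after the values were seen, so a link to A runs was not tested. rpoB and rpoC2 are both long and hold such a run, whereas rpoC1, psaB and psaA are long without one, and the separate parts of length and sequence were not tested.

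**Figure D5:**
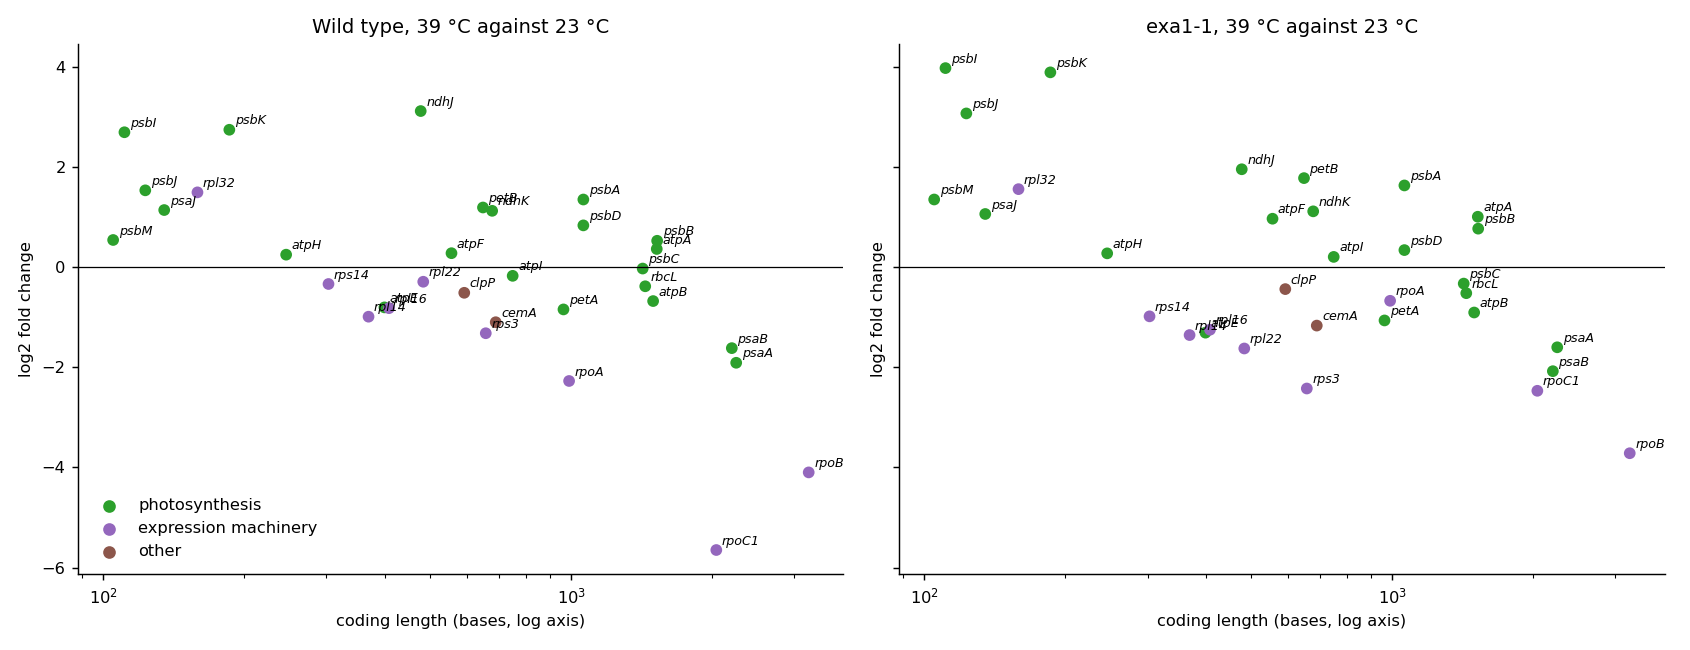
Log2 fold change at 39 °C against 23 °C (TMM scaling) against coding length (log axis) for the 33 placed and tested protein-coding members, in wild type (left) and exa1-1 (right), coloured by class. Tested members under 200 bases lie above 0 and those of 2000 bases or more lie below it in both panels, with psbT and rpoC2 not tested.

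Other transcripts moved with the heat results. Mitochondrion-encoded rows, which come from the other organelle, rose from 0.0198% ± 0.00296 to 0.0982% ± 0.0232 of counts in wild type and from 0.0361% ± 0.00328 to 0.107% ± 0.000511 in exa1-1 (SD, n = 3 each), with 31 and 32 of 32 tested rows called higher. Among 17 nuclear photosynthesis genes that mark green tissue, 17 were called higher under TMM in wild type and 15 in exa1-1. Of all genes tested, 38.4% were higher and 41.6% lower in wild type, and 38.4% and 41.8% in exa1-1. Under total counts RBCS1B and RBCS2B were called lower in both genotypes and RBCS1A in neither direction. The rest of the list was called higher. The summed level of the list went from 3.05% to 3.17% of counts at 23 °C to 4.53% to 4.97% at 39 °C in wild type. Among 12 root genes, 7 were called lower and 2 higher under TMM in wild type, and 8 and 2 in exa1-1. Their summed level went from 0.171% to 0.177% of counts at 23 °C to 0.0267% to 0.0292% at 39 °C in wild type. In every group each gene of both lists had a mean above 0. Their part in the chloroplast results was not tested.

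The nuclear genes that serve chloroplast transcription were followed as a list of 20, all tested. In wild type at 39 °C 15 were called higher and 4 lower under TMM, but 5 higher and 10 lower under total counts, and in exa1-1 15 and 3 against 5 and 11. Beside these stand the shares of all genes called, 80.1% and 80.2% under TMM and 87% and 89% under total counts, and list medians of 0.70 and 0.66 under TMM against -0.07 and -0.08 over all genes. SIGE (AT5G24120, also named SIG5), a stress- and light-responsive sigma factor known for transcription of psbD, went from 2.67 to 68.0 CPM with TMM scaling in wild type, a log2 change of 4.66 ± 0.10 (SE; edgeR adjusted p = 1.34e-18), and by 3.98 ± 0.10 (SE; edgeR adjusted p = 8.02e-18) in exa1-1. Under total counts it was still called higher, at 3.78 and 2.99. TRX_z (AT3G06730), a thioredoxin of the plastid transcription complex, was called higher at 1.68 and 1.62, and at 0.80 and 0.62 under total counts. AT5G15700, of the same list, was called higher by more under total counts, at 1.57 in wild type and 0.93 in exa1-1. Of 16 nuclear genes for chloroplast RNA processing and decay, 10 were called higher and 3 lower in both genotypes, against 5 and 10 in wild type and 3 and 10 in exa1-1 under total counts, beside the same shares of all genes; the list medians under TMM were 0.50 and 0.44. The stem-loop binding protein gene CSP41A (AT3G63140) and its partner CRB (AT1G09340) were called higher in wild type at 1.66 and 1.91, and at 0.78 and 1.03 under total counts. Of the genes called lower under both scales, chosen for naming after their values were seen, PGR3 (AT4G31850), a pentatricopeptide repeat protein, stood at -1.84 in wild type and -1.73 in exa1-1, and at -2.72 in both under total counts. RNEE/G (AT2G04270), an endonuclease of the RNase E type, stood at -0.72 and -0.95, and the sigma factor gene SIG4 at -0.52 and -0.28.

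The heat response differed between genotypes for 1 of 39 members, against 8.04% of all genes (4.36% higher and 3.69% lower). psbK rose more in exa1-1, by 1.15 ± 0.27 on the log2 scale (SE; edgeR adjusted p = 0.0146). At 23 °C psbK was called lower in exa1-1, by 0.85 on the log2 scale, and at 39 °C no difference was called. Without wild-type 23 °C replicate 2, the library with 78 counts, the difference was 0.89 and the call was lost (edgeR adjusted p = 0.0646). rpoC1, psbI and atpA followed at 3.18, 1.28 and 0.64, with adjusted p from 0.0872 to 0.136 in the same edgeR test. Other members could differ by amounts this depth does not show.

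Salt moved few members, and all calls were downward. Among 41 tested, 6 were called lower and none higher in wild type after 60 min in 200 mM NaCl, against 35.6% lower and 35.3% higher, 70.9% in all, of the 21462 genes tested. In exa1-1 5 were called lower and none higher, against 36.2% and 35.7%, 71.9% in all. ndhJ, psbJ, rpl20 and psbT were not tested. rbcL, psbA, psbB and ATCG00040, a protein-coding row, were called lower in both genotypes. The calls held under total counts, where 9 were lower in each genotype, against 43.3% lower, 29.1% higher and 72.4% in all for wild type and 44%, 29% and 72.9% for exa1-1. In wild type 2 calls were left with a robust estimate of the spread, against 71% of all genes, and 2 by DESeq2, against 67.9%.

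rbcL showed the largest salt change among the photosynthesis genes called. It gave 423, 172 and 166 counts in wild type on 1/2 MS and 106, 100 and 119 in NaCl, and in exa1-1 283, 280 and 387 against 84, 151 and 165. All NaCl libraries lay below their controls. It fell by 1.12 ± 0.28 on the log2 scale (SE; edgeR adjusted p = 0.00142) in wild type and by 1.21 ± 0.27 (SE; edgeR adjusted p = 4.08e-04) in exa1-1. Without wild-type 1/2 MS replicate 1 the wild-type value was -0.54, still called.

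psbA gave 496, 232 and 234 counts on 1/2 MS and 189, 177 and 166 in NaCl in wild type, and 326, 326 and 344 against 146, 245 and 268 in exa1-1. It fell by 0.74 ± 0.23 (SE; edgeR adjusted p = 0.00623) and 0.56 ± 0.22 (SE; edgeR adjusted p = 0.0287) on the log2 scale. Without wild-type 1/2 MS replicate 1 the wild-type value of psbA was -0.29 and the call was lost (edgeR adjusted p = 0.129), and without exa1-1 NaCl replicate 1 its exa1-1 value was -0.37, also lost (edgeR adjusted p = 0.149). psbB fell by 0.33 and 0.45, with the wild-type call lost under 13 of 20 alternatives. ATCG00040, on 39 against 18 and 28 against 12 summed counts, fell by 0.99 and 1.16, each call lost under 7 of 20, and stood at -0.62 in wild type without 1/2 MS replicate 1. psaA and psaB were called lower in wild type alone, at -0.72 and -0.76, where the 3 libraries on 1/2 MS ranged from 66 to 233 and from 65 to 190 counts and overlapped with NaCl. With wild-type 1/2 MS replicate 1 left out, psaA stood at -0.23 (edgeR adjusted p = 0.488) and psaB at -0.10 (edgeR adjusted p = 0.766), and their calls were lost under 7 and 10 of 20 alternatives. atpA was called lower in exa1-1 alone, at -0.44, although no difference between genotypes in its salt response was called. Without wild-type 1/2 MS replicate 1, and also without wild-type NaCl replicate 1, 2 members were called in wild type. In exa1-1 3 were called without 1/2 MS replicate 1, 3 without 1/2 MS replicate 3 and 2 without NaCl replicate 1.

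No expression machinery gene was called in salt, of 17 tested in either genotype, against 70.9% of all genes in wild type and 71.9% in exa1-1. At these counts small differences were not detectable. rpoB gave 184, 138 and 130 counts on 1/2 MS and 112, 172 and 169 in NaCl in wild type, with overlapping groups. By class the median log2 change was -0.32 for photosynthesis and -0.12 for expression machinery in wild type, and -0.22 and -0.14 in exa1-1, beside -0.01 over all genes in both. Of the 20 genes listed for chloroplast transcription, 4 were called higher and 8 lower in wild type and 5 and 14 in exa1-1, with list medians of -0.02 and -0.29. Of all genes tested, 35.3% were higher and 35.6% lower in wild type, and 35.7% and 36.2% in exa1-1. PTAC12 (AT2G34640), a component of the transcription complex, was lower at -1.10 and -1.18, and SIG4 (AT5G13730) higher at 1.16 and 0.88. Green-tissue genes were called higher for 14 and lower for 2 of 17 in wild type and for 11 and 5 in exa1-1, and root genes higher for 2 and lower for 10 of 12 in each genotype; their part in the salt results was not tested. For the genotype difference in salt response no member was called of 41, against 11.2% of all genes (6.02% higher and 5.16% lower), with 2 at an unadjusted p under 0.05 and none by DESeq2, against 11.3% of the genes to which it gave an adjusted p. Without wild-type 1/2 MS replicate 1, 1 member was called by edgeR.

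Between the genotypes 1 to 6 members were called in each condition, at a depth where small differences in most members were not detectable. The share came nearest to that of all genes at 23 °C, at 15.4% against 19.4%. At an unadjusted p under 0.05 in edgeR's test stood 3 of 41 on 1/2 MS and 9 of 41 under NaCl. By the same measure there were 12 of 39 at 23 °C and 9 of 39 at 39 °C. On 1/2 MS 1 of 41 was called, against 18.3% of all genes (8.14% higher and 10.1% lower): rpl16, a ribosomal protein gene, at 74, 43 and 55 counts in wild type and 25, 33 and 36 in exa1-1, was lower by 0.84 ± 0.22 (SE; edgeR adjusted p = 0.0118). Without exa1-1 1/2 MS replicate 1 rpl16 stood at -0.77 (edgeR adjusted p = 0.0507) and no member was called. Without wild-type 1/2 MS replicate 1 it stood at -0.62 and lost its call (edgeR adjusted p = 0.0856), while 2 other members were called. There were 2 calls without wild-type 1/2 MS replicate 2. Under NaCl 4 of 41 were called, against 29.5% (15.9% higher and 13.6% lower). atpI, a membrane subunit of ATP synthase, was lower at -1.35, on 14, 28 and 21 against 9, 6 and 10 counts, rpoC1 at -0.82 and atpA at -0.48, and psbC was higher at 0.57 with overlapping groups. Without exa1-1 NaCl replicate 3 psbC stood at 0.25 (edgeR adjusted p = 0.403), and its call was lost under 11 of 20 alternatives, against 7 for atpA, 4 for rpoC1 and 0 for atpI. The count was 1 without wild-type NaCl replicate 3 and 2 without exa1-1 NaCl replicate 1. Of the 17 green-tissue genes, none was called higher and 12 lower in exa1-1 on 1/2 MS and 17 lower under NaCl, and of the 12 root genes 5 were higher and 1 lower on 1/2 MS and 2 and 1 under NaCl; their part was not tested.

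At 23 °C 6 of 39 were called, against 19.4% of all genes (8.27% higher and 11.2% lower). psbD gave 53, 55 and 48 counts in wild type and 92, 100 and 87 in exa1-1, and was higher by 0.71 ± 0.17 (SE; edgeR adjusted p = 0.006215). rbcL was higher at 0.63 and psbC at 0.43, whereas psbK, rpl32 and atpI were lower, at -0.85, -1.02 and -0.97. Without exa1-1 23 °C replicate 2 psbC stood at 0.29 (edgeR adjusted p = 0.217), and calls were lost under 7 of 20 alternatives for psbC and atpI and 6 for rpl32. At 39 °C 2 of 39 were called, against 24.4% (12.7% higher and 11.7% lower): atpA was higher in exa1-1 at 0.59, on 56, 64 and 57 against 99, 77 and 84 counts, and rpl32 was lower at -0.95, but stood at -0.50 without wild-type 39 °C replicate 2 (edgeR adjusted p = 0.230). Leaving out single libraries gave 2 to 7 calls at 23 °C and 0 to 3 at 39 °C, the 2 coming without wild-type 23 °C replicate 2 and the 0 without exa1-1 39 °C replicate 1. At 39 °C 1 call was left without replicate 3 of either genotype. Calls at 23 °C numbered 3 without each of wild-type replicate 3, exa1-1 replicate 1 and exa1-1 replicate 2. Of the green-tissue genes 7 were called lower at 23 °C and 10 at 39 °C, none higher, and of the root genes 5 were higher and 2 lower at each temperature; their part was not tested.

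The 2 unstressed control sets, which share no library, also differed. At 23 °C against 1/2 MS, 6 members were higher and 3 lower of 40 tested in wild type, against 33.7% and 35.3%, 69% in all, of the 21262 genes tested. In exa1-1 4 were higher and 1 lower, against 32.9% and 32.7%, 65.6% in all. The counts were 5 in wild type without 23 °C replicate 3 and 2 in exa1-1 without 23 °C replicate 2. rpoB was higher by 0.45 in wild type and by 0.61 in exa1-1, atpB by 0.25 and 0.27, and psbA was lower at -0.65 and -0.71; under total counts atpB was not called, nor rpoB in wild type. In wild type psbA stood at -0.19 without 1/2 MS replicate 1 and lost its call (edgeR adjusted p = 0.221), as did the other members called lower there, rbcL at -0.10 (edgeR adjusted p = 0.651) and ATCG00040 at -1.25 (edgeR adjusted p = 0.0567). Green-tissue genes were called higher at 23 °C for 16 of 17 in wild type and 17 in exa1-1, none lower, and root genes higher for 2 in each and lower for 7 and 4 of 12; their part was not tested. These differences are between sets as well as between conditions, which cannot be told apart, and no level was compared across the sets beyond them.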

How the data were processed

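Per the labels, RNA from whole Arabidopsis thaliana seedlings was sequenced as strand-specific mRNA libraries, 3 in each of 8 groups. Per the submitters' processing notes, HISAT2 2.0.4, HTSeq 0.6.1p1 and the TAIR10 build were named. The authors deposited raw read counts per gene and FPKM values, which are counts divided by exon length and library total. Totals were 17658196 to 20992263 counts per library. Intervals and floors cover counting error only.

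The salt, heat and control sets, of 12 libraries each, were fitted separately with edgeR 4.0.16 (TMM scaling, filterByExpr, quasi-likelihood test) in R 4.3.3, over all genes after a check on simulated counts, with Benjamini-Hochberg adjustment and a threshold of 0.05. SE is the log2 change divided by the root of the F statistic. FPKM values served for levels alone. Alternatives were DESeq2 1.42.0 and its size factors, total-count and nuclear-gene scaling, no filter, 1 fit of all 24 libraries, a replicate block and single libraries left out; a robust estimate of the spread was added after seeing the data. Replicate numbers did not pair libraries. Members, classes and lists were chosen with earlier results of these data known, and list direction is no independent evidence. Members could all be named; library values were given for the highest FPKM in each class and for up to 8 called members per comparison with the smallest adjusted p, and for nuclear lists up to 4 genes. Sequences are from RefSeq (TAIR10.1). Copies elsewhere were sought with blastn 2.17.0. clpP was named from its equal exon length in RefSeq, and ATCG00040, ATCG00100 and ATCG00450 kept their identifiers. 1 member is not reported here.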

Additional observations from a re-analysis of the deposited data

Results flagged for a closer look

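The response of psbK to 39 °C differed between the genotypes by a test of the difference itself. The rise was larger in exa1-1 than in wild type by 1.15 on the log2 scale (SE 0.27; edgeR adjusted p = 0.0146), with all 3 libraries of each genotype higher at 39 °C than at 23 °C. Over 20 alternatives the difference ranged from 0.89 to 1.31 and its adjusted p from 0.00151, by DESeq2, to 0.0646, by edgeR, with the call lost when wild-type 23 °C replicate 2 was left out.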

How the results depend on the processing

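Scaling moved the heat values most. With a TMM-scaled library size as denominator, the summed chloroplast level at 39 °C stood at 0.31 in wild type and 0.42 in exa1-1 on the log2 scale, against -0.57 and -0.58 as a share of all counts. Under total counts psbD in wild type reversed to -0.044, psbB to -0.35 in wild type and -0.22 in exa1-1, and atpF in exa1-1 to -0.020, because that scale moves all genes down. Total counts gave 9 calls for salt in exa1-1 and 2 for the control sets in exa1-1. DESeq2 gave 2 calls for salt in wild type, 3 for salt in exa1-1 and 1 for genotype under NaCl. A robust estimate of the spread, chosen after seeing the data, gave 2 for salt in wild type, and 1 fit of all 24 libraries gave 2 for genotype on 1/2 MS. With the replicate block, salt in wild type gave 3 calls and genotype under NaCl 2. The block is not a pairing here, since deviations of libraries with the same number correlated at -0.045 to 0.093. For these counts the cause was not tested.

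Leaving out 1 library at a time gave 2 to 8 calls for salt in wild type, 2 to 6 for salt in exa1-1, 0 to 1 for the salt difference between genotypes, 0 to 2 for genotype on 1/2 MS and 1 to 4 under NaCl. It gave 19 to 25 for heat in wild type, 21 to 28 for heat in exa1-1, 0 to 1 for the heat difference, 2 to 7 for genotype at 23 °C, 0 to 3 at 39 °C, and 5 to 13 and 2 to 7 for the control sets in wild type and exa1-1. The summed level ranged from -0.70 to -0.44 for heat in wild type, -0.65 to -0.43 in exa1-1, -0.53 to -0.17 for salt in wild type and -0.55 to -0.29 in exa1-1. Between genotypes it ranged from -0.12 to 0.23 on 1/2 MS, -0.15 to 0.12 under NaCl, -0.02 to 0.16 at 23 °C and 0.01 to 0.21 at 39 °C. With 1289 to 3400 chloroplast counts per library, small differences in most members were not detectable at this depth.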
